A study of Rattus norvegicus and Mus musculus with 17 samples.

Results

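Morris hepatoma was compared with untreated rat liver, to show which genes a transplanted liver tumour expresses more or less than the organ it grows in. The deposited table for this comparison gave 9082 genes with a symbol in 7 of the 17 libraries of the series, 4 of hepatoma and 3 of control liver, and all of these genes and libraries were used. The hepatoma libraries came from male ACI rats, an inbred strain, that were 10 weeks old when 1000000 MH3924a cells were placed in the liver, and tumour tissue was collected 2 weeks after that. MH3924a is a single transplantable line of the Morris hepatomas, so all 4 hepatoma libraries have the same line of cells as their source and stand for no other tumour. The tumours grew inside the liver of a host of the same strain, so host hepatocytes, vessels and immune cells can be in the tissue. The control libraries came from age-matched male ACI rats with no treatment. The labels name no animal for each library, and p-values therefore rest on the spread among these 7 libraries, which may be technical.

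Hepatocytes secrete albumin and most other plasma proteins, make bile, clear ammonia as urea and oxidise drugs with cytochrome P450 enzymes, and few of them divide in an adult liver. Hepatomas arise from this cell type and keep its program to very different degrees, from well differentiated tumours to fast growing ones that keep little of it. Growing tumour cells copy their DNA, build ribosomes and take up glucose and amino acids, and many switch to enzyme forms that the fetal liver or other tissues use.

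Expression was read as RPKM, reads per kilobase of transcript scaled to the mapped reads of a library, with 0.001 standing for no reads. The table lists only genes whose deposited p-value was under 0.05, the highest being 0.04999, so genes outside the table cannot be described and those in it were selected for a difference. Of the 9082 genes, 8233 reached 1 RPKM in at least 3 libraries and were tested with limma as log2(RPKM + 1), with p-values adjusted by the Benjamini-Hochberg method over the 23154 protein-coding genes of the annotation. Of these, 7042 were called higher in the hepatoma (85.5%), 719 lower (8.73%) and 472 neither, at an adjusted p under 0.05, so 94.3% were called. All 4 hepatoma libraries lay above all 3 controls in 87.2% of the tested genes and below them in 11.4%. The count of lower genes depended on control libraries 1 and 2, being 349 without the first and 343 without the second, and it was 490 without hepatoma library 1. Over all tested genes the log2 fold change had a median of 1.58. All log2 fold changes are hepatoma over control on the log2(RPKM + 1) scale, which understates the change of low genes, and are given with their SE. With library medians set equal, 2029 genes were higher (24.6%) and 2389 lower (29%), so the share of calls that were higher moved from 90.7% to 45.9%. Gene lists are therefore given, with few exceptions, with their median, the distance of that median from 1.58 (relative) and how many members were called with equal medians. Of the tested genes 1492 (18.1%) reached 1 RPKM in no control library. They were tested only because the hepatomas reached it, so they had to be higher, and 1488 of them were called so. Counts and medians of lists that hold many such genes are descriptions only, and their number is given for these lists. The p-values of named genes with all 3 controls under 1 RPKM, such as Cdkn2a, are likewise descriptions only. Counts of list members called higher stand against the 85.5% of all tested genes, and counts called lower against the 8.73%. The read depth of the libraries was not given, and low values placed control libraries 2 and 3 at 1.02 and 1.14 times the depth of control library 1 (90 of 642 and 58 of 555 genes within 0.01 of this ratio). In the hepatomas 3 or fewer genes gave such a ratio. Only ratios near 1 were searched, so a larger difference in depth could not have been found.

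**Figure D1:**
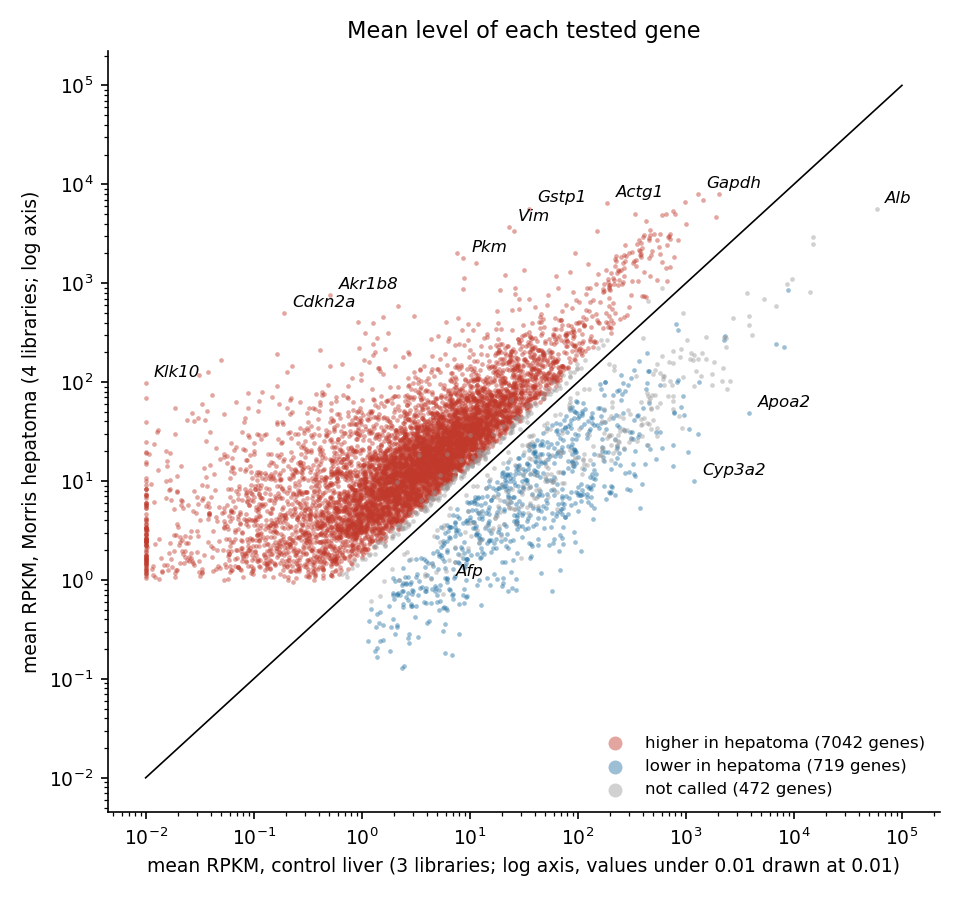
Mean RPKM of each tested gene in control liver (horizontal log axis, 3 libraries) and in Morris hepatoma (vertical log axis, 4 libraries), with the diagonal at equal levels. The 7042 genes called higher lie above the diagonal and the 719 called lower below it, and the most abundant control transcript, Alb, lies below it without being called.

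Markers of the labelled tissue were present in the controls. Of 20 hepatocyte markers 17 were listed, and they made up 26.5, 24.6 and 26.1% of the summed RPKM of all listed genes in control libraries 1 to 3 and 0.175, 0.00772, 4.94 and 3.84% in hepatoma libraries 1 to 4. Of the 17, 2 were called lower and none higher (median -5.32, relative -6.9; 0 higher and 6 lower with equal medians), although all hepatoma libraries lay below all controls for each of the 17. The hepatoma libraries also differed among themselves. Over the tested genes, log values of control libraries 1 and 2 correlated at r = 0.996, and control library 3 at 0.966 and 0.963 with them. Hepatoma libraries 1 and 2 correlated at 0.969 and libraries 3 and 4 at 0.982, while the pairs across ran from 0.844 to 0.93. Control libraries correlated at 0.37 to 0.526 with hepatoma libraries 1 and 2 and at 0.666 to 0.793 with libraries 3 and 4. These correlations are across genes, which are not replicates. They cover only genes that were listed for a difference between the 2 groups, so they do not stand for all genes. Alb and the counts of hepatocyte genes are given for the pairs apart.

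The genes that define the liver were lower in every hepatoma library, but by very different amounts. Alb (GeneID 24186), which encodes albumin, had 67213, 60249.7 and 48189.7 RPKM in the controls and 574, 19, 10944 and 10924 in the hepatomas. The groups did not overlap, yet libraries 3 and 4 held over 10 times the level of library 1 and library 2 was lowest by far. On the log scale this spread left Alb uncalled (log2 fold change -5.74 ± 2.44, adjusted p = 0.17). The same test with hepatoma libraries 1 and 2 alone gave -9.08 (adjusted p = 0.0017) and with libraries 3 and 4 alone -2.41 (adjusted p = 0.0003). These pairs were chosen after the data were seen and leave out the spread between them, so both fits are descriptions only. Without hepatoma library 2 Alb had -3.82 (adjusted p = 0.04). The thyroxine and retinol carrier gene Ttr had 20082, 17376 and 4688 RPKM in the controls and 143, 7.33, 1699.8 and 1442 in the hepatomas. Serpina1, the gene of the elastase inhibitor alpha-1-antitrypsin, had 12629, 11690.2 and 20517 RPKM in the controls and 104, 5.4, 6078 and 3786 in the hepatomas. Tf, the gene of the iron carrier transferrin, had 12430.1, 13213 and 19519 RPKM in the controls and 225, 69.6, 6594 and 4787 in the hepatomas. In all of these the order was the same, with hepatoma library 2 lowest, library 1 next, and libraries 3 and 4 nearest to control.

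This held for hepatocyte genes in general. The 6 lists of plasma carriers, coagulation and complement, cytochrome P450 enzymes, conjugating enzymes, bile acid genes and urea cycle and amino acid breakdown genes held 178 gene symbols, of which 132 were listed and 130 tested. In 124 of the 130 genes both libraries 3 and 4 lay above both libraries 1 and 2, against 14% of all tested genes, and in 113 library 2 was lowest. The order was not particular to hepatocyte genes, since 571 of the 664 genes called lower outside these lists (86%) had it too. The median level was 1.28% of the control mean in hepatoma library 1, 0.0753% in library 2, 21.5% in library 3 and 17.3% in library 4. Of these genes 55 were called lower, 4 higher and 71 neither, while 8.73% of all tested genes were called lower. In 70 of the 71 all 4 hepatoma libraries were below all 3 controls (11.4% of the tested genes had this order). With hepatoma libraries 1 and 2 alone 124 were lower, and with libraries 3 and 4 alone 116. These pairs were chosen after the data were seen, so both counts are descriptions only. Leaving out control library 1, 2 or 3 gave 13, 14 or 38 lower genes, and leaving out hepatoma library 1 or 2 gave 26 or 75. The count was 89 with equal medians, 102 with adjustment over the tested genes only, 101 with limma's trend and robust options off, and 13 with a block on library number. Since bulk RNA was measured, fewer hepatocytes and less of these transcripts in each cell cannot be told apart.

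**Figure D2:**
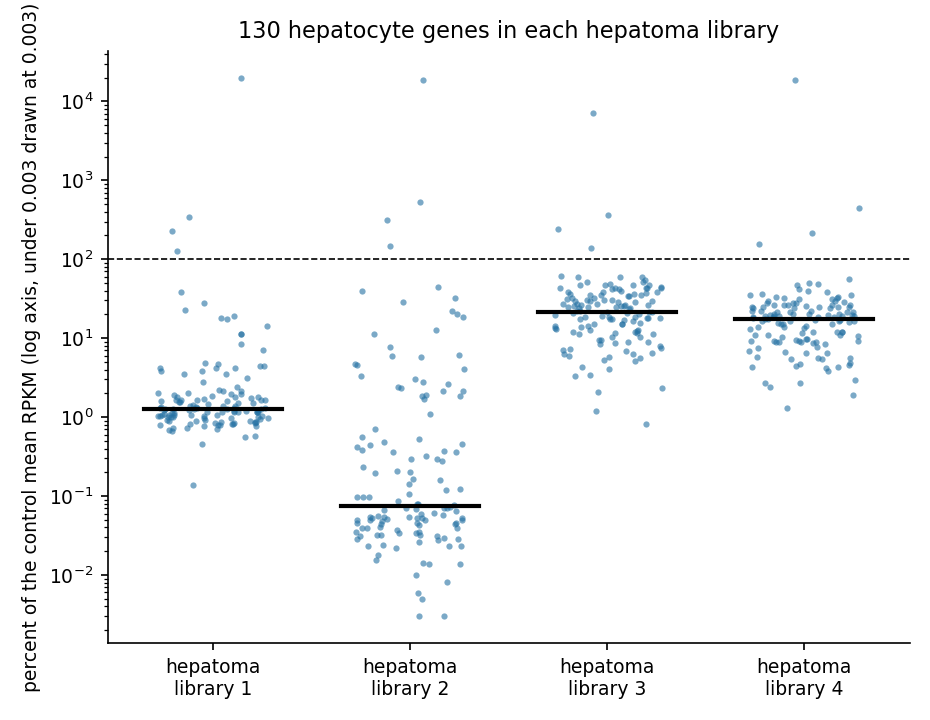
Level of each of the 130 tested hepatocyte genes in the 4 hepatoma libraries as a percent of the control mean (log axis), with the median as a bar and the control mean as a dashed line. The medians are 1.28%, 0.0753%, 21.5% and 17.3% in libraries 1 to 4, and 4 genes lie above the dashed line in each library.

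Among plasma carriers, 4 of 21 tested genes were called lower and none higher (median log2 fold change -5.45, -7.03 relative to all tested genes). Of all tested genes 8.73% were called lower. With medians set equal 7 carriers were lower. All hepatoma libraries lay below all controls in each of the 22 listed carriers, against 11.4% of the tested genes. Their summed RPKM made up 33.5 to 37% of the summed RPKM of all listed genes in the controls, and 0.263, 0.0568, 6.51 and 5.14% in hepatoma libraries 1 to 4. Apoe, which encodes a ligand for lipoprotein uptake, fell from 11180.5, 10972 and 4372 RPKM in control libraries 1 to 3 to 167, 190.4, 1592 and 1498 in hepatoma libraries 1 to 4 (log2 fold change -3.95 ± 1.04, adjusted p = 0.028). Unlike Alb it was no lower in library 2 than in library 1. Apoa2, the gene of an HDL protein, had 5348, 5646 and 570.4 RPKM in the controls and 30.0, 2.65, 46.6 and 114 in the hepatomas (log2 fold change -6.53 ± 1.47, adjusted p = 0.017). Pon1, the gene of an HDL-bound esterase, had 1824, 1787 and 245 RPKM in the controls and 10.7, 0.227, 55.3 and 53.1 in the hepatomas (log2 fold change -6.01 ± 1.65, adjusted p = 0.038). In both, control library 3 was far below the other controls. The call of Apoe was lost without any 1 control library (adjusted p = 0.11, 0.12 and 0.062) or without hepatoma library 1 (0.071). Pon1 was lost in the same fits (adjusted p = 0.15, 0.15, 0.058 and 0.1), and Apoa2 without control library 1 or 2 (both 0.081) or hepatoma library 1 (0.052).

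Coagulation and complement genes gave 4 lower and none higher of 26 tested (median -4.28, relative -5.86), and 13 lower with equal medians. In all 26 every hepatoma library lay below every control. C1r, a protease that starts the classical complement cascade, fell from 369, 401 and 335 RPKM to 102, 147, 222 and 179 (log2 fold change -1.23 ± 0.27, adjusted p = 0.0047). Pros1, which encodes protein S, a cofactor of anticoagulant protein C, fell from 54.3, 61 and 49.5 to 10.4, 15.6, 26.7 and 19.09 (log2 fold change -1.63 ± 0.28, adjusted p = 0.00084). Hepatoma library 2 was not the lowest for either gene, and libraries 3 and 4 were above libraries 1 and 2 for both. Of 6 acute phase genes tested 1 rose and 1 fell (median -4.6, relative -6.18; 0 higher and 1 lower with equal medians). Il6r, the interleukin-6 receptor gene, fell from 21.8, 24.6 and 24.2 to 2.81, 4.74, 11 and 8.25 RPKM (log2 fold change -1.81 ± 0.36, adjusted p = 0.0035). The feedback inhibitor gene Socs3, which interleukin-6 signalling induces, rose from 0.79, 0.637 and 9.42 to 22.1, 45.2, 47.4 and 57.9 (log2 fold change 3.74 ± 0.75, adjusted p = 0.0086), and it was already raised in control library 3. Its call was lost with equal medians (2.08, adjusted p = 0.16) and with quantile normalization (2.18, adjusted p = 0.16).

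Cytochrome P450 genes, whose enzymes oxidise drugs and steroids, gave 14 lower and 3 higher of 25 tested (median -4.9, relative -6.48), with 21 lower and 0 higher with equal medians. Cyp3a2, a male form of the steroid and drug hydroxylase family 3A, had 1594, 1877 and 128 RPKM in the controls and 13.8, 0.376, 9.85 and 15.8 in the hepatomas (log2 fold change -6.54 ± 1.38, adjusted p = 0.013). No other called gene with groups apart and a mean of at least 10 RPKM fell by more on this scale, although control library 3 held far less than the other controls. Without control library 1 or 2 the call was lost (adjusted p = 0.063 and 0.062). The 3 genes that rose were Por (0.50 ± 0.17), which encodes the reductase that feeds electrons to these enzymes, Cyp20a1 (1.18 ± 0.17) and Cyp2s1 (0.91 ± 0.15). With equal medians they had -1.16, -0.48 and -0.75, that is, all turned. The rise of Por was also lost without control library 1 or 2 (adjusted p = 0.19 and 0.15) or without any 1 hepatoma library (0.068, 0.087, 0.071 and 0.13). P450 genes have close copies among which the authors' counting could split reads, so single members are uncertain.

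Among 17 conjugating enzymes 9 fell and 1 rose (median -3.97, relative -5.55; 13 and 1 with equal medians). The member that rose was Gstp1 (GeneID 24426), the placental glutathione transferase known as a marker of altered hepatocytes in rat liver carcinogenesis. It rose from 23.2, 61.6 and 20.6 RPKM to 7007, 6623, 2484 and 6606 (log2 fold change 7.36 ± 0.49, adjusted p = 4.6e-06) and stood among the 10 most abundant listed transcripts of the hepatoma. Gsta4, a glutathione transferase of normal liver that removes lipid aldehydes, fell from 82.5, 77.6 and 34.4 to 11.4, 3.77, 9.86 and 12.7 (log2 fold change -2.67 ± 0.45, adjusted p = 0.0018).

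Bile acid genes gave 10 lower of 13 and none higher (median -3.82, relative -5.4), and all 13 were lower with equal medians. Slc10a1, the sodium-dependent bile acid uptake carrier of hepatocytes, had 485, 593 and 92.5 RPKM in the controls and 4.12, 1.25, 13.1 and 18.7 in the hepatomas (log2 fold change -5.32 ± 1.04, adjusted p = 0.0092). Slco1a1, an organic anion carrier, fell from 27.3, 25.5 and 7.87 RPKM to 0.304, 0.001, 2.27 and 1.11 (log2 fold change -3.44 ± 0.57, adjusted p = 0.0029). The peroxisomal racemase gene Amacr fell from 225, 253 and 208 to 8.84, 5.53, 45.7 and 25.2 (log2 fold change -3.77 ± 0.70, adjusted p = 0.0052). The calls of Slc10a1 and Slco1a1 were lost in at least 1 alternative fit (highest adjusted p = 0.062 and 0.076). Urea cycle and amino acid breakdown genes gave 14 lower of 28 (median -4.11, relative -5.69) and 22 with equal medians. Kmo, an enzyme of tryptophan breakdown, fell from 83.8, 89.2 and 38.2 to 1.44, 1.86, 9.01 and 8.45 RPKM (log2 fold change -3.72 ± 0.66, adjusted p = 0.0042). Hal, the first enzyme of histidine breakdown, fell from 93.3, 85.9 and 22.1 to 0.511, 0.0384, 4.39 and 2.99 (log2 fold change -4.57 ± 0.81, adjusted p = 0.0053). Kmo and Hal also lost their calls in at least 1 alternative fit (highest adjusted p = 0.053 and 0.068).

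The transcription factors that keep hepatocyte identity split, with 5 higher, 5 lower and 5 neither of 15 tested (median -1.26, relative -2.84). Nr1h3, the oxysterol receptor LXR-alpha, fell from 72, 73.5 and 40.1 RPKM to 9.27, 11.6, 30.0 and 20.9 (log2 fold change -1.82 ± 0.41, adjusted p = 0.0077). This call was lost in at least 1 alternative fit (highest adjusted p = 0.12). The endoderm factor gene Gata4 rose from 4.73, 4.39 and 4.41 to 26.3, 17.1, 18.2 and 23.2 (log2 fold change 1.99 ± 0.18, adjusted p = 1.3e-05). With equal medians no factor was higher, 11 were lower, and Gata4 was at 0.33 (adjusted p = 0.39).

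Cell division genes moved the other way. All 29 spindle and segregation genes and all 16 cyclins and cyclin-dependent kinases rose, against 85.5% of all tested genes, with medians of 3.74 and 3.32 (relative 2.16 and 1.74), and 28 and 13 were higher with equal medians. Of them 17 and 5 had no control library at 1 RPKM, and the other 12 and 11 rose as well. Cdca8, a part of the chromosomal passenger complex that corrects attachments to the spindle, had 0.498, 0.524 and 0.64 RPKM in the controls and 37.6, 42.2, 28.1 and 27.5 in the hepatomas (log2 fold change 4.47 ± 0.19, adjusted p = 3.8e-07). The S phase cyclin gene Ccna2 had 0.291, 0.351 and 1.58 RPKM in the controls and 41.2, 68.2, 45.2 and 46.6 in the hepatomas (log2 fold change 4.93 ± 0.28, adjusted p = 8.9e-07). The G1 cyclin gene Ccnd2 had 0.524, 0.532 and 0.681 RPKM in the controls and 60.5, 85.3, 54.3 and 56.5 in the hepatomas (log2 fold change 5.34 ± 0.19, adjusted p = 2.1e-07). For these 3 genes the lowest hepatoma library was more than 20 times the highest control, and no pair of hepatoma libraries stood apart the way it did for Alb.

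DNA replication genes gave 39 higher and 1 lower of 40 (median 3.4, relative 1.82; 31 and 1 with equal medians). Dnmt1, the maintenance DNA methyltransferase, rose from 1.47, 1.42 and 1.87 RPKM to 50.8, 50.9, 35.1 and 38.1 (log2 fold change 4.1 ± 0.19, adjusted p = 4.6e-07). Its partner gene Uhrf1 rose from 0.001, 0.001 and 0.236 to 22.6, 27.4, 17.6 and 16.4 (log2 fold change 4.33 ± 0.20, adjusted p = 4.9e-07). Of these replication genes 15 had no control library at 1 RPKM. None of the 15 tested genes of recombination and crosslink repair reached 1 RPKM in a control, so that they were all called higher was set by the filter. They summed to 3.15 to 4.77 RPKM in a control and 77.9 to 121 in a hepatoma, and with equal medians 9 were higher and 1 lower. Examples are Fancd2 (3.45 ± 0.20), which acts in crosslink repair, and the checkpoint kinase gene Chek1 (3.14 ± 0.18).

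Inhibitors of the same cell cycle kinases were among the transcripts that differed most. Cdkn2a (GeneID 25163), the locus of the inhibitor p16 and of the p53 activator ARF, had 0.252, 0.246 and 0.0737 RPKM in the controls and 554, 612, 255 and 565 in the hepatomas (log2 fold change 8.63 ± 0.30, adjusted p = 1.8e-07). Akr1b8 alone rose by more among called genes with groups apart and a mean of at least 10 RPKM. Its neighbour Cdkn2b, which encodes p15, had 0.262, 0.269 and 0.15 RPKM in the controls and 191, 189, 58.8 and 143 in the hepatomas (log2 fold change 6.76 ± 0.39, adjusted p = 3e-06). Cdkn2c, which encodes p18, had 0.507, 0.257 and 0.731 RPKM in the controls and 8.79, 10.8, 6.16 and 10.9 in the hepatomas (log2 fold change 2.75 ± 0.22, adjusted p = 4.7e-06). Of the 15 inhibitor and p53 pathway genes 14 rose and 1 fell (median 2.39, relative 0.81), with 5 and 1 with equal medians. In 4 of the 15, Cdkn2a, Cdkn2b and Cdkn2c among them, no control library reached 1 RPKM, so they could only be called higher. Of the other 11, 10 rose. The one that fell was the growth arrest gene Gadd45g (log2 fold change -1.29 ± 0.41, adjusted p = 0.042), a call lost without any 1 control library (adjusted p = 0.15, 0.16 and 0.072) or hepatoma library 2 (0.11). Values per gene do not show which transcript of Cdkn2a was made, nor whether the sequence is intact.

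Promoters of the rising cell cycle genes are shown because members of these lists moved together and are known to share sequence elements. The CHR element (TTTGAA, either strand) is bound by the complexes that time genes of mitosis, and the CCAAT box (CCAAT, either strand) by the factor NF-Y. Of 26 spindle and segregation genes with a RefSeq promoter window (250 bases before to 50 after the start, build GRCr8), 73.1% held the CHR letters and 65.4% the CCAAT letters, against 17% and 38.4% of the windows of 19005 protein-coding genes. The E2F letters (TTCCCGC or TTGGCGC, either strand), bound by factors of S phase genes, stood in 52.9% of 34 DNA replication genes and in 8.33% of the protein-coding genes. Among genes called higher they stood in 13.4%. A match describes letters in the window and shows no binding. The windows printed below were picked among genes whose window held the marked letters, so their presence there was fixed by that choice. Capitals mark CHR and CCAAT letters in Cdca8 (chr5:142483150-142483449, minus strand) and Plk1 (chr1:186147408-186147707, plus strand), E2F letters in Mcm3 (chr9:30733697-30733996, minus strand), and the HNF1 motif GTTAAT, which a factor of hepatocytes binds, in Alb, the most abundant control transcript (chr14:17906930-17907229, minus strand).
Cdca8: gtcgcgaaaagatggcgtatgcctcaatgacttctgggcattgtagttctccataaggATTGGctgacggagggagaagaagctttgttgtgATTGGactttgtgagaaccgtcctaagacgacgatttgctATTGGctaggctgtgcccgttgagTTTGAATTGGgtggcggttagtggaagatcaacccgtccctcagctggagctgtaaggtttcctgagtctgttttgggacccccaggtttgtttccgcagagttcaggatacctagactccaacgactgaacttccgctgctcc
Plk1: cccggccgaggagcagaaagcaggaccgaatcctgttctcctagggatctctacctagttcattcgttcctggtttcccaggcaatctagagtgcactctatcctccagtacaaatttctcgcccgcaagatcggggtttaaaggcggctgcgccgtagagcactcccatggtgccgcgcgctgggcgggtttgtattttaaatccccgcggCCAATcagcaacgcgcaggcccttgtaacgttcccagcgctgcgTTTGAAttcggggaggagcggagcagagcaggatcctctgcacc
Mcm3: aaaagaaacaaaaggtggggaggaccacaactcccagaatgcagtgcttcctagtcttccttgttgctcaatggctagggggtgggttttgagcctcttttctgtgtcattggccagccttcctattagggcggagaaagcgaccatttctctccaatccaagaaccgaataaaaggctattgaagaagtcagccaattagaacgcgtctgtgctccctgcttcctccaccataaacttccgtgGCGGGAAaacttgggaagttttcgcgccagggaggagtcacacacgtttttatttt
Alb: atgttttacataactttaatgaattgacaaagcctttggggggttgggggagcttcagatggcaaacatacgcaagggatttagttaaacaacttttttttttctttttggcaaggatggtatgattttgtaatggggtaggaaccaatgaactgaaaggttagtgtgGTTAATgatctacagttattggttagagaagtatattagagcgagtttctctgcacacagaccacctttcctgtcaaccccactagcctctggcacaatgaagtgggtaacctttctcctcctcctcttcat
The Cdca8 window held several CCAAT matches, one of which shares a base with its CHR match. Plk1, the mitotic polo kinase gene, had 0.27, 0.158 and 0.747 RPKM in the controls and 39, 59.3, 36.7 and 34.9 in the hepatomas (log2 fold change 4.96 ± 0.23, adjusted p = 4.7e-07). Mcm3, a subunit of the replicative helicase, had 0.315, 0.387 and 1.14 RPKM in the controls and 53.2, 57.9, 36.6 and 44.1 in the hepatomas (log2 fold change 4.94 ± 0.23, adjusted p = 4.9e-07). The HNF1 letters stood in 23.5% of 17 plasma carrier genes, 22.7% of 22 coagulation and complement genes and 6.76% of the protein-coding genes. Other liver lists were nearer to that share, with 9.09% of 22 urea cycle and amino acid breakdown genes, none of 5 acute phase genes and none of 8 hepatocyte transcription factors. In bile acid genes the share was 33.3% of 9, in P450 genes 13% of 23, in conjugating enzymes 12.5% of 16, and in all genes called lower 7.83%. CpG pairs, observed over expected, had a median of 0.871 in the spindle genes, 0.215 in the plasma carriers and 0.549 in the protein-coding genes.

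Genes of ribosome making and protein folding rose together with cell division genes. All 26 nucleolar genes of ribosome assembly rose, against 85.5% of all tested genes (median 2.86, relative 1.28; 18 with equal medians), for example Wdr43 (3.5 ± 0.19), a factor of the small subunit precursor. All 40 tested cytosolic ribosomal protein genes rose as well (median 2.47, relative 0.89; 18 with equal medians). Their summed RPKM made up 2.89 to 3.72% of the listed total in the controls and 11.3 to 17.6% in the hepatomas. Rplp0, a protein of the ribosomal stalk, had 643, 652 and 672 RPKM in the controls and 6406, 4932, 3652 and 4888 in the hepatomas (log2 fold change 2.89 ± 0.25, adjusted p = 7.8e-06). Ribosomal protein genes have many processed copies that can share reads, so single members are uncertain.

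Cytosolic chaperones gave 21 higher of 21, against 85.5% of all tested genes (median 2.84, relative 1.26; 14 with equal medians). The small heat shock protein gene Hspb1 rose from 11, 11.9 and 13.1 RPKM to 404, 358, 237 and 564 (log2 fold change 4.85 ± 0.28, adjusted p = 9.7e-07). Hsp90aa1, the inducible HSP90 gene, rose from 69.2, 61.7 and 67.4 to 728, 1226, 835 and 810.2 (log2 fold change 3.72 ± 0.23, adjusted p = 1.3e-06). All 13 tested genes of the endoplasmic reticulum stress response rose (median 2.1, relative 0.52; 4 higher and 2 lower with equal medians). Ddit3, the stress factor CHOP, went from 4.65, 4.94 and 4.14 to 51.6, 47.8, 59.6 and 61.7 RPKM (log2 fold change 3.33 ± 0.17, adjusted p = 5.5e-07). All 27 proteasome genes were higher too, but their median of 1.45 was -0.13 relative to all tested genes, and with equal medians 2 were higher and 2 lower. Both tested genes of the immune proteasome and antigen presentation were higher (median 1.32, relative -0.26; 0 higher and 0 lower with equal medians), so their median lay below that of all tested genes.

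**Figure D3:**
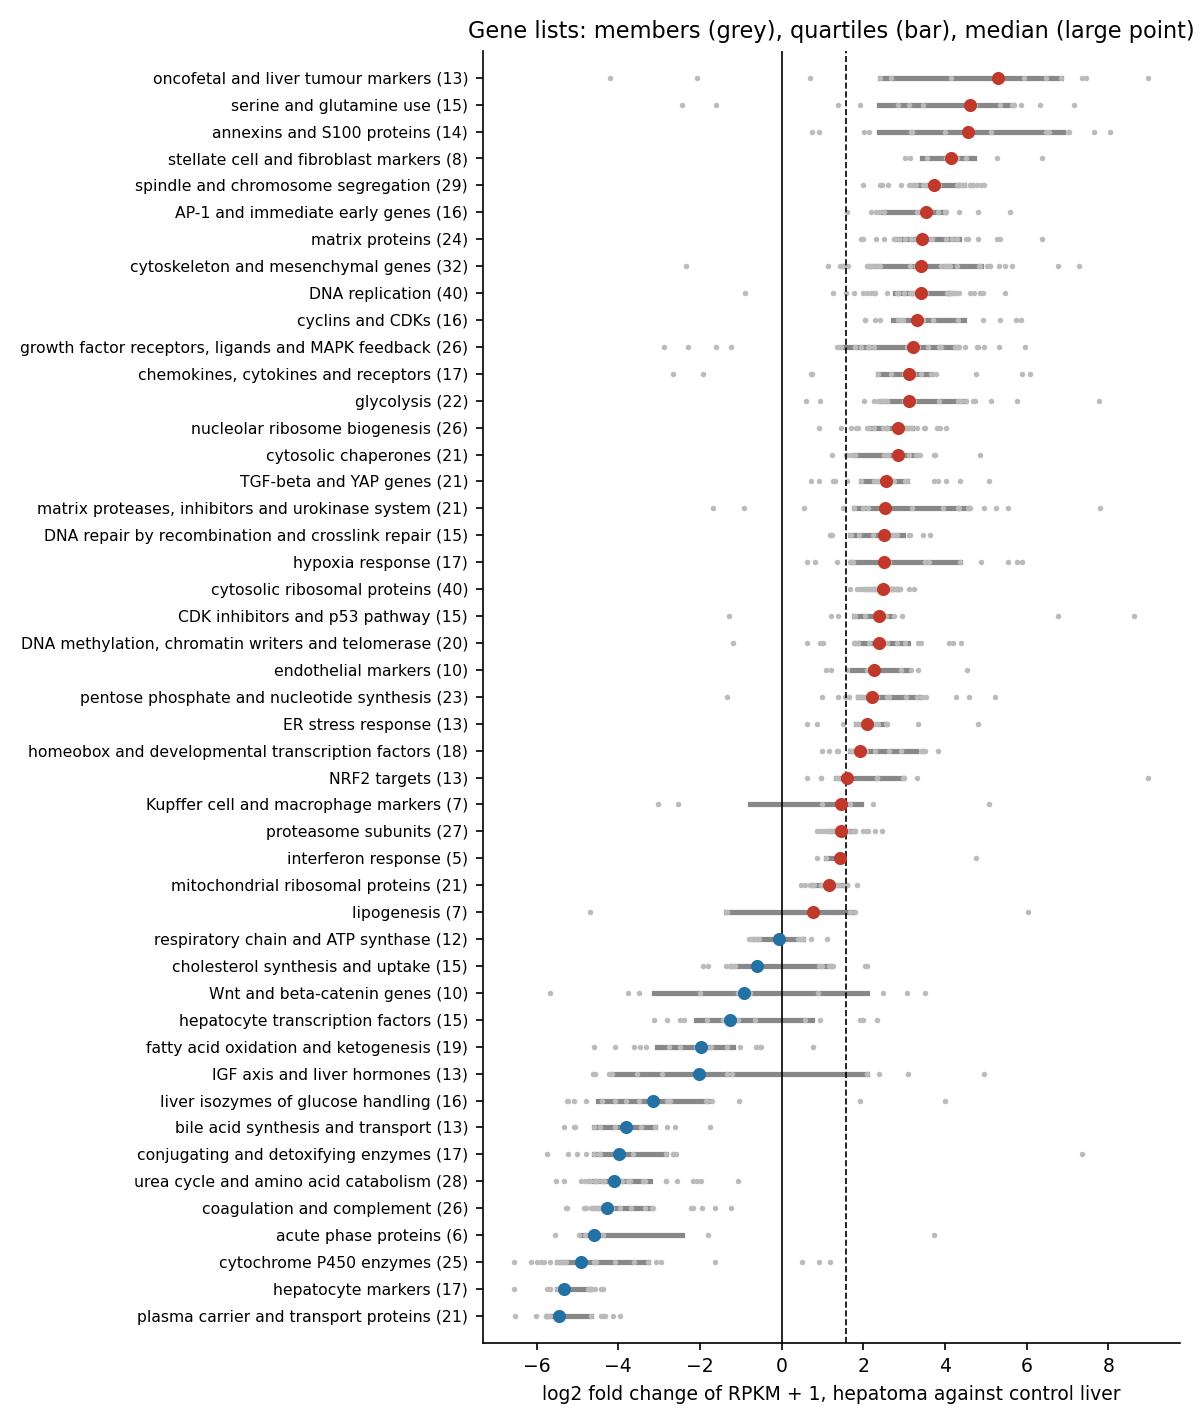
Log2 fold change of RPKM + 1 between hepatoma and control liver for the members of each gene list with at least 5 tested genes (number in brackets). Grey points are genes, bars run between quartiles, large points are medians, the solid line is 0 and the dashed line the median of all tested genes, 1.58. Proteasome and mitochondrial ribosome lists lie near the dashed line, growth lists to its right and hepatocyte lists left of 0.

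In sugar metabolism, liver forms of enzymes fell and forms of other tissues rose. Of 22 glycolysis genes 21 rose (median 3.12, relative 1.54; 17 higher and 1 lower with equal medians), while of 16 liver isozymes and genes of glucose release 8 fell and 2 rose (median -3.16, relative -4.74; 10 lower and 1 higher with equal medians). Over all tested genes 85.5% were called higher and 8.73% lower. Of the glycolysis genes 6 had no control library at 1 RPKM, and 15 of the other 16 rose. Pkm, the pyruvate kinase of muscle and growing cells, had 3.86, 4.36 and 17.8 RPKM in the controls and 2165, 2304, 1247 and 1407 in the hepatomas (log2 fold change 7.77 ± 0.49, adjusted p = 5e-06). The liver form Pklr had 115, 129.9 and 16 RPKM in the controls and 3.13, 1.51, 11 and 7.07 in the hepatomas (log2 fold change -3.5 ± 0.94, adjusted p = 0.034). Of the summed RPKM of both, Pkm made up 3.26%, 3.25% and 52.7% in control libraries 1 to 3 and 99.1% to 99.9% in the hepatomas. The call of Pklr was lost without control library 1 or 2 (adjusted p = 0.13 in both) and without hepatoma library 1 (0.093) or 4 (0.057).

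Other pairs differed in the same sense. The hexokinase genes Hk1 (4.74 ± 0.22) and Hk2 (4.68 ± 0.21) and the neuronal enolase gene Eno2 (4.38 ± 0.20) rose. Slc2a1, the glucose carrier of most growing cells, made up 1.56%, 1.67% and 2.02% of its sum with the liver carrier Slc2a2 in the controls and 99.5%, 100%, 76% and 91.7% in hepatoma libraries 1 to 4. The mitochondrial Pck2 made up 59.8% and 98.4% of its sum with the glucose-making Pck1 in hepatoma libraries 1 and 2 but 3.44% and 4.72% in libraries 3 and 4, against 0.234% to 0.304% in the controls. In these pairs the liver form kept more of its share in libraries 3 and 4, where Alb was higher too. The part of hepatocytes left in the tissue in these shares was not tested.

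**Figure D4:**
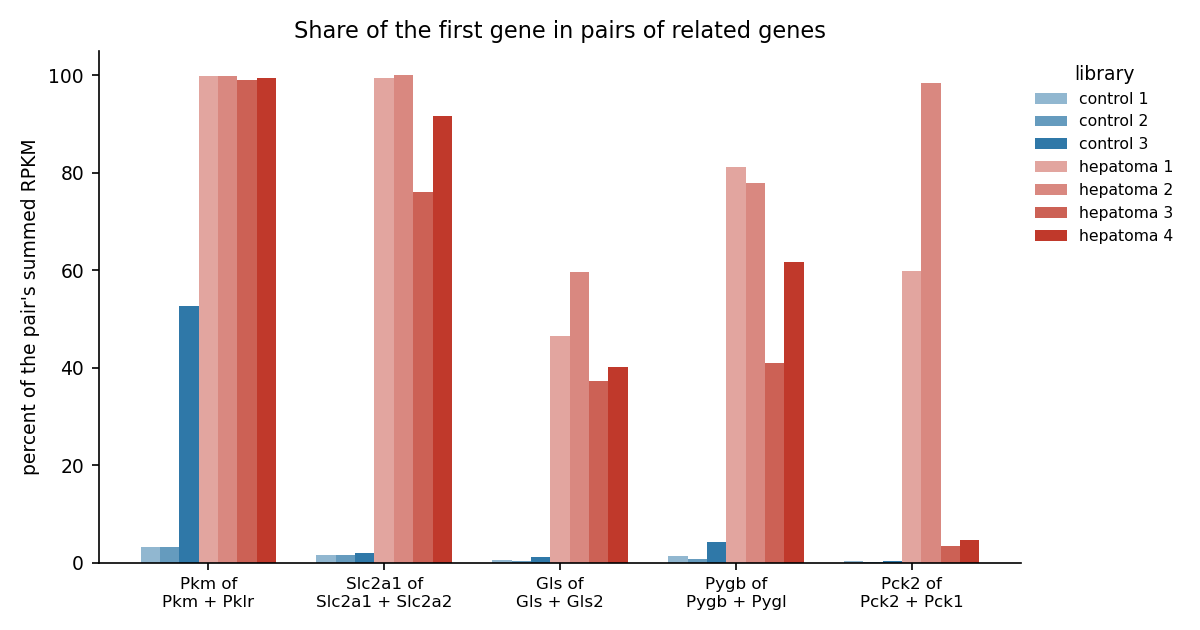
Share of the first gene in the summed RPKM of 5 pairs of related genes (bars from 0, percent), in 3 control libraries (blue) and 4 hepatoma libraries (red). Pkm and Slc2a1 make up most of their pairs in all 4 hepatomas, while Pck2 does so in hepatoma libraries 1 and 2 (59.8% and 98.4%) and not in libraries 3 and 4 (3.44% and 4.72%).

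Genes that make serine and take up amino acids differed by more than most lists. Of 15 tested genes 13 rose and 2 fell (median 4.61, relative 3.03; 11 and 2 with equal medians). Of the genes tested 7 had no control library at 1 RPKM, Phgdh and Slc1a5 among them, and could only be called higher. Of the other 8, 6 rose. Psat1 (GeneID 293820), the second enzyme of serine synthesis from glucose, had 1.11, 1.11 and 0.902 RPKM in the controls and 176, 231, 117 and 145 in the hepatomas (log2 fold change 6.32 ± 0.23, adjusted p = 2.6e-07). Phgdh, the first enzyme, had 0.97, 0.706 and 0.766 RPKM in the controls and 98.4, 171, 75.2 and 92.8 in the hepatomas (log2 fold change 5.86 ± 0.26, adjusted p = 4.5e-07). The glutamine carrier gene Slc1a5 had 0.334, 0.203 and 0.699 RPKM in the controls and 214, 305, 122 and 198 in the hepatomas (log2 fold change 7.16 ± 0.29, adjusted p = 3.3e-07). The 2 genes that fell act on glutamine and glutamate in liver mitochondria. Gls2, the liver glutaminase, went from 99.2, 97.2 and 66.9 to 13.8, 8.87, 20.7 and 19.6 RPKM (log2 fold change -2.45 ± 0.29, adjusted p = 6.8e-05). Glud1, glutamate dehydrogenase, went from 254, 269.7 and 199 to 55.4, 52, 131 and 95.1 (log2 fold change -1.61 ± 0.33, adjusted p = 0.0028).

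Folate and nucleotide genes showed a like contrast. Mthfd2, a mitochondrial folate enzyme of growing and embryonic cells, rose from 0.302, 0.0562 and 0.569 to 44.1, 76.9, 40.9 and 35.1 RPKM (log2 fold change 5.22 ± 0.27, adjusted p = 6.4e-07). The cytosolic serine enzyme gene Shmt1 fell from 39.2, 36.3 and 28 to 9.75, 12.2, 16.3 and 14.3 (log2 fold change -1.34 ± 0.21, adjusted p = 0.00049). Shmt1 was the exception among 23 genes of the pentose phosphate path and nucleotide synthesis, of which 22 rose (median 2.22, relative 0.64; 12 higher and 1 lower with equal medians).

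Mitochondrial energy genes were mostly lower or near control. Of 12 tested genes of the respiratory chain and ATP synthase, out of 33 in the list, 2 rose, 3 fell and 7 did neither (median -0.07, relative -1.65), and with equal medians 11 were lower. Atp5b, a catalytic subunit of ATP synthase, rose from 717, 721 and 533 to 1734, 1490.5, 1114 and 1382 RPKM (log2 fold change 1.12 ± 0.24, adjusted p = 0.0039) but had -0.55 with equal medians (adjusted p = 0.12). Sdha, the flavoprotein of complex II, fell from 84.9, 85.6 and 54.5 to 39.1, 40.5, 48.1 and 39.3 (log2 fold change -0.81 ± 0.21, adjusted p = 0.012), a call that was lost without control library 1 (0.068) or 2 (0.066). Fatty acid oxidation genes gave 12 lower and 1 higher of 19 (median -1.98, relative -3.56), against 8.73% of all tested genes called lower. With equal medians 17 were lower. Etfb, which passes electrons from fatty acid oxidation to the chain, fell from 273, 295 and 190 to 44.7, 43.7, 98 and 78.5 RPKM (log2 fold change -1.98 ± 0.32, adjusted p = 0.00059). Its level in hepatoma libraries 1 and 2 was nearly equal, unlike that of Alb. Mitochondrial ribosomal protein genes gave 20 higher of 21 (median 1.16, relative -0.42) but none higher and 8 lower with equal medians.

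Lipid genes were mixed. Cholesterol genes gave 7 higher and 7 lower of 15 (median -0.60, relative -2.18), and 0 and 8 with equal medians. Nsdhl, a sterol dehydrogenase of the path, fell from 183, 192 and 79.1 to 28.8, 39.6, 46.6 and 32.5 RPKM (log2 fold change -1.93 ± 0.32, adjusted p = 0.00073). Mvd, an earlier enzyme, rose from 7.76, 6.22 and 3.7 to 25.9, 41.7, 16.9 and 27.5 (log2 fold change 2.05 ± 0.31, adjusted p = 0.00041), a call lost with equal medians (0.39, adjusted p = 0.7) and with quantile normalization (adjusted p = 0.46). Of 7 genes of fat synthesis 3 rose and 2 fell (median 0.76, relative -0.82; 1 and 4 with equal medians). The desaturase gene listed as Scd, which makes oleate, rose from 1.11, 0.945 and 1.45 to 167, 259, 59.8 and 150.2 RPKM (log2 fold change 6.03 ± 0.45, adjusted p = 1.5e-05). Its GeneID now belongs to Scd2 in RefSeq, a close relative of the liver form. Thrsp, a regulator of fat synthesis in liver, fell from 291, 252 and 66.7 to 4.0, 0.42, 14.6 and 16.8 (log2 fold change -4.68 ± 1.1, adjusted p = 0.02), and this call was lost without control library 1 or 2 (both 0.088) or hepatoma library 1 (0.061).

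Tumour marker genes held some of the largest differences. Akr1b8 (GeneID 286921), an aldo-keto reductase that reduces aldehydes, had 0.537, 0.233 and 0.761 RPKM in the controls and 807, 938, 553 and 738 in the hepatomas. Its rise was the largest of all called genes with groups apart and a mean of at least 10 RPKM (log2 fold change 8.97 ± 0.23, adjusted p = 1.3e-07). Of 13 oncofetal and liver tumour markers tested 11 rose and 1 fell (median 5.3, relative 3.72; 9 and 3 with equal medians). Of the genes tested 5 had no control library at 1 RPKM, Akr1b8 and Igf2bp1 among them, and could only be called higher. Of the other 8, 6 rose. Hmga1, a chromatin protein of embryonic cells, had 1.19, 1.88 and 1.61 RPKM in the controls and 566, 419, 292 and 541 in the hepatomas (log2 fold change 7.44 ± 0.25, adjusted p = 1.8e-07). Igf2bp1, a fetal mRNA-binding protein, had 0.001, 0.001 and 0.0247 RPKM in the controls and 47.3, 41.8, 30.2 and 37.6 in the hepatomas (log2 fold change 5.3 ± 0.18, adjusted p = 1.8e-07). Mest, an imprinted gene of embryonic mesoderm, had 1.64, 1.17 and 0.975 RPKM in the controls and 470.1, 465, 249 and 399.9 in the hepatomas (log2 fold change 7.42 ± 0.25, adjusted p = 1.8e-07). None of these 4 genes passed 2 RPKM in a control, and each was above 30 RPKM in every hepatoma. The member that fell was Afp, the classical fetal and tumour plasma protein alpha-fetoprotein, with 6.43, 5.86 and 6.31 RPKM in the controls and 0.0282, 0.001, 1.86 and 1.88 in the hepatomas (log2 fold change -2.08 ± 0.45, adjusted p = 0.0079). Its level was low in all libraries, and hepatoma libraries 1 and 2 were lowest, as for Alb. With pseudocount 0.1 the call of Afp was lost (adjusted p = 0.086).

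Genes of cell shape rose. Vim (GeneID 81818), the intermediate filament protein of mesenchymal cells, had 18.5, 14.3 and 36.6 RPKM in the controls and 4798, 4223, 1997 and 3701 in the hepatomas (log2 fold change 7.29 ± 0.38, adjusted p = 7.5e-07). Actg1, cytoplasmic gamma-actin, had 156, 159 and 247 RPKM in the controls and 8442, 7091, 4546 and 5681 in the hepatomas (log2 fold change 5.09 ± 0.29, adjusted p = 9.5e-07). The actin bundling protein gene Fscn1 had 0.536, 0.288 and 2.36 RPKM in the controls and 327, 397, 206 and 332 in the hepatomas (log2 fold change 7.36 ± 0.35, adjusted p = 7.4e-07). Hepatoma library 3 was the lowest of the 4 for each of these 3 genes and still above every control. Of 32 genes of this list 31 rose and none fell (median 3.41, relative 1.83; 21 higher and 1 lower with equal medians). All 14 annexins and S100 calcium-binding proteins rose (median 4.57, relative 2.99; 10 higher and 2 lower with equal medians). Anxa2, a membrane-binding annexin, had 5.21, 3.69 and 14.1 RPKM in the controls and 2414, 2305, 1533 and 1851 in the hepatomas (log2 fold change 8.03 ± 0.38, adjusted p = 5.6e-07). S100a11 had 12.4, 9.45 and 12.3 RPKM in the controls and 1589, 1601, 1614 and 1646 in the hepatomas (log2 fold change 7.04 ± 0.19, adjusted p = 1.3e-07), and the 4 hepatoma libraries lay within 4% of each other. The list made up 0.0332 to 0.043% of the listed total in the controls and 1.06 to 1.22% in the hepatomas.

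Most growth factor ligands, receptors and feedback genes rose, while Egfr, Erbb3 and the ligand gene Tgfa fell. Of 26 genes 22 rose and 3 fell (median 3.2, relative 1.62; 14 and 4 with equal medians), while 85.5% of all tested genes were called higher. Of the 26, 6 had no control library at 1 RPKM, Hbegf and Etv4 among them, and 16 of the other 20 rose. Hbegf, a ligand of the EGF receptor, had 0.191, 0.317 and 0.302 RPKM in the controls and 34.9, 37.9, 29.4 and 35.1 in the hepatomas (log2 fold change 4.79 ± 0.15, adjusted p = 1.8e-07). Fgfr1, a fibroblast growth factor receptor of mesenchymal cells, had 0.864, 1.14 and 1.12 RPKM in the controls and 35.7, 29.7, 22 and 28 in the hepatomas (log2 fold change 3.85 ± 0.19, adjusted p = 5.1e-07). The receptor gene Egfr, abundant in hepatocytes, had 21.7, 23.7 and 13.4 RPKM in the controls and 0.235, 0.525, 5.85 and 3.36 in the hepatomas (log2 fold change -2.87 ± 0.67, adjusted p = 0.016), a call lost without control library 1 (0.074) or 2 (0.078). Egfr was thus lowest in hepatoma libraries 1 and 2, while Hbegf, one of its ligands, was high in all 4. The ligand gene Tgfa had 3.02, 3.8 and 1.87 RPKM in the controls and 0.0928, 0.129, 2.13 and 0.815 in the hepatomas (log2 fold change -1.23 ± 0.39, adjusted p = 0.046). Its groups overlapped, hepatoma library 3 being above control library 3, and the call was lost without any 1 library other than hepatoma library 3 (adjusted p of 0.051 to 0.17) and with pseudocount 0.1 (0.1). Erbb3, a receptor of neuregulins, went from 8.9, 13.1 and 12.1 to 1.15, 2.06, 6.79 and 4.08 RPKM (log2 fold change -1.61 ± 0.43, adjusted p = 0.02), a call lost without control library 2 (0.089) or 3 (0.094) or hepatoma library 2 (0.055). Downstream, the ERK-induced factor gene Etv4 had 0.001, 0.0497 and 0.0224 RPKM in the controls and 49.2, 49.4, 26.8 and 39.8 in the hepatomas (log2 fold change 5.33 ± 0.22, adjusted p = 3.5e-07). The ERK phosphatase gene Dusp5 had 1.72, 2.36 and 2.44 RPKM in the controls and 114, 91.3, 63.4 and 85.2 in the hepatomas (log2 fold change 4.8 ± 0.22, adjusted p = 4.5e-07). Among 16 AP-1 and immediate early genes all rose, against 85.5% of all tested genes (median 3.52, relative 1.94; 10 with equal medians). Of the 16, 4 had no control library at 1 RPKM, Fosl1 among them, and the other 12 rose as well. The AP-1 subunit gene Fosl1 had 0.001, 0.001 and 0.0783 RPKM in the controls and 46.1, 56.9, 41.5 and 52.1 in the hepatomas (log2 fold change 5.6 ± 0.16, adjusted p = 1.3e-07), at or near no reads in each control.

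**Figure D5:**
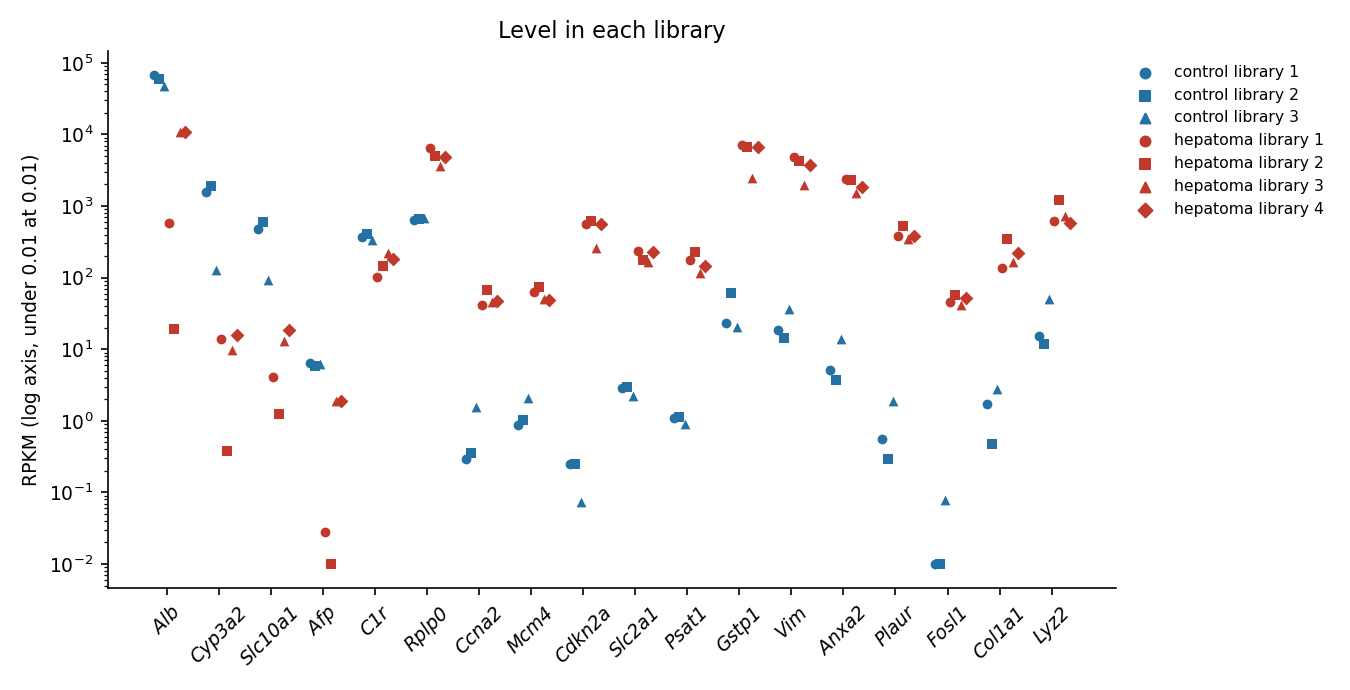
RPKM of 18 genes in each library (log axis), control liver in blue and hepatoma in red, with a symbol for each library number. Alb, Cyp3a2, Slc10a1 and Afp spread widely among the hepatomas, while Cdkn2a, Slc2a1, Plaur and Fosl1 lie closer together and far above the controls.

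IGF and Wnt genes were mixed. Of 13 genes of the IGF axis and liver hormones 4 rose, 5 fell and 4 did neither (median -2.02, relative -3.61; 2 and 7 with equal medians). Igf1r, the receptor that adult hepatocytes barely express, had 0.0505, 0.0247 and 0.0555 RPKM in the controls and 11.3, 8.99, 5.13 and 7.28 in the hepatomas (log2 fold change 3.09 ± 0.23, adjusted p = 3.1e-06). The binding protein gene Igfbp6 had 3.0, 0.2 and 0.689 RPKM in the controls and 77.6, 98.4, 32.2 and 57.9 in the hepatomas (log2 fold change 4.96 ± 0.52, adjusted p = 0.00018). Among 10 Wnt genes 4 rose and 3 fell (median -0.92, relative -2.5; 3 and 7 with equal medians). Of the 10, 2 (Wnt7b and Fzd2) had no control library at 1 RPKM, and 2 of the other 8 rose. The ligand gene Wnt7b had 0.0565, 0.001 and 0.001 RPKM in the controls and 10.3, 6.79, 5.52 and 8.28 in the hepatomas (log2 fold change 3.07 ± 0.20, adjusted p = 1.6e-06). The receptor gene Fzd2 had 0.124, 0.197 and 0.15 RPKM in the controls and 13.8, 14.7, 7.7 and 13.6 in the hepatomas (log2 fold change 3.5 ± 0.22, adjusted p = 1.4e-06). Both were under 0.2 RPKM in all controls and above 5 RPKM in all hepatomas. Notum and Rnf43, feedback inhibitors that Wnt signalling induces, were among those that fell. Rnf43 went from 1.63, 1.52 and 1.32 to 0.357, 0.256, 0.695 and 0.571 RPKM (log2 fold change -0.77 ± 0.15, adjusted p = 0.0019). Notum went from 47.5, 51.1 and 9.52 to 0.411, 0.0535, 2.57 and 3.6 (log2 fold change -3.75 ± 0.82, adjusted p = 0.014), lost without control library 1 (0.065) or 2 (0.064).

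All 21 genes of the TGF-beta and YAP paths rose (median 2.56, relative 0.98; 14 higher and 2 lower with equal medians), as did all 17 hypoxia genes (median 2.5, relative 0.92; 9 higher and 2 lower), against 85.5% of all tested genes. Of the TGF-beta and YAP genes 5 had no control library at 1 RPKM, and the other 16 rose as well. Cyr61, a secreted target of YAP, had 3.97, 4.05 and 3.84 RPKM in the controls and 102, 53.6, 75.2 and 99.3 in the hepatomas (log2 fold change 4.03 ± 0.23, adjusted p = 1e-06). Ndrg1, a gene induced at low oxygen, had 0.979, 0.916 and 2.37 RPKM in the controls and 179, 134, 112 and 132 in the hepatomas (log2 fold change 5.89 ± 0.25, adjusted p = 3.7e-07). The letters ACGTG of the hypoxia response core stood in 76.9% of 13 hypoxia promoters, against 20.4% of protein-coding genes and 27.1% of genes called higher. Other lists that rose varied, with 54.2% of 24 nucleolar genes, 50% of 20 glycolysis genes and none of 18 matrix genes. All 13 NRF2 targets were higher, but their median of 1.61 stood 0.03 from that of all tested genes, and with equal medians 5 were higher and 1 lower. Of the 13, 3 had no control library at 1 RPKM, and the other 10 rose as well.

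Chromatin writers and DNA methylation genes gave 19 higher and 1 lower of 20 (median 2.38, relative 0.80; 9 and 4 with equal medians). Ezh2, the histone methyltransferase of Polycomb, had 0.933, 1.02 and 0.82 RPKM in the controls and 35.6, 45.6, 26.6 and 30.9 in the hepatomas (log2 fold change 4.19 ± 0.20, adjusted p = 4.9e-07). The gene that fell was Tert, the catalytic protein of telomerase, with 3.49, 3.37 and 1.86 RPKM in the controls and 0.481, 0.315, 1.18 and 0.881 in the hepatomas (log2 fold change -1.19 ± 0.23, adjusted p = 0.0018). The groups of Tert did not overlap, at levels of a few RPKM.

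Some genes had no reads in any control library. There were 262 of them, all with reads in each of the 4 hepatoma libraries, of which 80 reached a hepatoma mean of 1 RPKM and 8 a mean of 10. The highest was Klk10 (GeneID 292850), a secreted kallikrein-related protease of epithelia, with 111, 124, 58.4 and 97.2 RPKM in hepatoma libraries 1 to 4. Sohlh2, a factor of early germ cells, had 32.7, 32.5, 15.6 and 18.1. Tex19.1, a germline protein that restrains transposons, had 19.4, 27.9, 14.3 and 18. The homeobox gene Rhox7 of the reproductive cluster had 18.5, 14.9, 10.9 and 14.8, and Rhox5 of the same cluster 4.22, 6.4, 3.48 and 4.49. In the same set were Vax2, a homeobox gene of the eye, with 19.3, 26.3, 10.9 and 21, and Hoxd12 of the limb and genital cluster, with 11.9, 8.02, 4.02 and 9.47. Trem2, a receptor of macrophages, was at 14.7, 10.8, 4.96 and 10.1. Since the controls are listed at no reads, no fold is given for these genes. Only 10 genes had no reads in any hepatoma, and none of them passed 0.679 RPKM as a control mean.

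Of 23 listed homeobox and developmental factors 18 were tested. Of these, 17 reached 1 RPKM in no control, so their rise was set by the filter, and the other 1 was also called higher (7 higher and 1 lower with equal medians). No median is given, since 6 of the list had no reads in any control. Hoxd13, the neighbour of Hoxd12, had 0.001, 0.001 and 0.021 RPKM in the controls and 12.4, 12.5, 6.72 and 11.8 in the hepatomas (log2 fold change 3.52 ± 0.21, adjusted p = 1.2e-06). Pitx1, a hindlimb homeobox gene, had 0.0518, 0.001 and 0.0114 RPKM in the controls and 13.2, 15.1, 8.49 and 19.8 in the hepatomas (log2 fold change 3.84 ± 0.24, adjusted p = 1.5e-06). Of 4 tested germline genes 3 were called higher, none of which reached 1 RPKM in a control and which therefore could only rise. Syce2, a protein of the meiotic synaptonemal complex, was the other and fell from 5.35, 7.65 and 2.53 to 1.71, 1.31, 2.24 and 2.01 RPKM (log2 fold change -1.05 ± 0.28, adjusted p = 0.015). That call was lost without control library 1 (0.06) or 2 (0.058) or hepatoma library 2 (0.055).

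The tumours also held more transcripts of matrix, of matrix-cutting enzymes and of stellate cell and endothelial markers. All 24 tested matrix genes rose, against 85.5% of all tested genes (median 3.44, relative 1.86; 15 with equal medians). Of the 24 matrix genes 10 had no control library at 1 RPKM, and the other 14 rose as well. Col1a1, fibrillar collagen of fibroblasts, had 1.7, 0.471 and 2.78 RPKM in the controls and 135, 351, 164 and 218 in the hepatomas (log2 fold change 6.37 ± 0.40, adjusted p = 4.1e-06), with hepatoma library 2 highest. Thbs1, a matrix protein that activates TGF-beta, had 0.31, 0.178 and 0.739 RPKM in the controls and 58, 38.1, 87.1 and 49.9 in the hepatomas (log2 fold change 5.35 ± 0.27, adjusted p = 6e-07). Of 21 proteases and inhibitors 18 rose and 2 fell (median 2.53, relative 0.95; 13 and 3 with equal medians). Plaur (GeneID 50692), the urokinase receptor, had 0.557, 0.295 and 1.9 RPKM in the controls and 385, 520.3, 341 and 376 in the hepatomas (log2 fold change 7.8 ± 0.29, adjusted p = 2.6e-07). Its ligand gene Plau had 3.76, 4.06 and 6.19 RPKM in the controls and 117, 166, 88.1 and 91.1 in the hepatomas (log2 fold change 4.34 ± 0.26, adjusted p = 1.2e-06). The urokinase inhibitor gene Serpinb2 had 0.0916, 0.001 and 0.0268 RPKM in the controls and 25.5, 32.2, 32.3 and 36.5 in the hepatomas (log2 fold change 4.96 ± 0.17, adjusted p = 1.8e-07). The receptor, the protease and an inhibitor of this system were thus all higher in each of the 4 hepatoma libraries.

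Markers of cells other than hepatocytes were measured because tumour tissue holds host cells. All 8 listed of 18 stellate cell and fibroblast markers rose (median 4.15, relative 2.57; 5 higher and 0 lower with equal medians), with a summed level of 20.2 to 84.7 RPKM in the controls and 517, 1220, 755 and 796 in hepatoma libraries 1 to 4. Of the 8, 2 had no control library at 1 RPKM, and the other 6 rose as well. Over all tested genes 85.5% were called higher. All 10 listed of 20 endothelial markers rose (median 2.26, relative 0.68; 4 higher and 0 lower with equal medians), with sums of 34.8 to 72.5 RPKM in the controls and 359 to 504 in the hepatomas, for example Flt1 (3.35 ± 0.25), a VEGF receptor. Of 18 macrophage markers 7 were listed, 5 rose and 1 fell (median 1.46, relative -0.12; 1 higher and 2 lower with equal medians), with sums of 169 to 212 RPKM in the controls and 781 to 1400 in the hepatomas. Lyz2, lysozyme of macrophages, had 15.4, 12 and 50.7 RPKM in the controls and 611, 1232, 715 and 581 in the hepatomas (log2 fold change 5.07 ± 0.50, adjusted p = 5.9e-05). Without Lyz2 the other 6 summed to 154, 178 and 162 RPKM in the controls and 170, 170.5, 193 and 218 in the hepatomas. Lyz2 thus made up most of the sum in each hepatoma library. The sum of the other 6 includes Clec4f, which fell, so it does not show that Lyz2 alone differed. Cd68, for example, had 32.4, 34.4 and 28.4 RPKM in the controls and 115, 101, 79.4 and 122 in the hepatomas (log2 fold change 1.67 ± 0.20, but 0.0085 with equal medians). Clec4f, a lectin of resident Kupffer cells, fell from 79, 91.9 and 70.2 to 6.39, 6.02, 26.8 and 25 RPKM (log2 fold change -2.54 ± 0.58, adjusted p = 0.012), a call lost without any 1 control library (adjusted p = 0.053, 0.062 and 0.061). Clec4f thus went against the 5 macrophage markers that rose. The part of these cells in the matrix and protease results was not tested.

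Of 16 T and NK cell markers 4 were listed, of which 3 rose and Gzma, a protease of cytotoxic cells, fell from 3.54, 3.61 and 1.39 to 0.178, 0.973, 0.445 and 0.668 RPKM (log2 fold change -1.26 ± 0.27, adjusted p = 0.0036). Over all tested genes 85.5% were called higher (for this list median 1.57, relative -0.01; 0 higher and 1 lower with equal medians). Of the 4 markers, 2 had no control library at 1 RPKM and could only be called higher, and 1 of the other 2 rose. The 4 markers summed to 2.98 to 4.93 RPKM in the controls and 8.85 to 21.5 in the hepatomas. All 3 listed cholangiocyte markers rose (median 1.42, relative -0.16; 1 higher and 0 lower with equal medians). Of 3 listed B and plasma cell markers 1 was tested, through the hepatomas alone, and was called higher. No neutrophil or erythroid marker was listed, so these cells have no value here. Chemokine and cytokine genes gave 13 higher and 2 lower of 17 (median 3.13, relative 1.55; 9 and 4 with equal medians). Of the 17, 6 had no control library at 1 RPKM, Ccl7 and Cxcl5 among them, and could only be called higher. Of the other 11, 7 rose. Ccl7, which draws monocytes, had 0.22, 0.0359 and 0.0646 RPKM in the controls and 21.5, 37, 31.4 and 28.7 in the hepatomas (log2 fold change 4.77 ± 0.20, adjusted p = 3.5e-07). The gene listed as Cxcl5, which draws neutrophils, had 0.001, 0.001 and 0.265 RPKM in the controls and 50.0, 82.5, 129 and 51.3 in the hepatomas (log2 fold change 6.08 ± 0.32, adjusted p = 1e-06). All 5 tested interferon response genes were higher (median 1.44, relative -0.14), with 1 higher and 2 lower with equal medians. Cxcl12, a stromal chemokine, fell from 63.4, 55.4 and 20.1 to 1.06, 8.4, 12.6 and 6.97 (log2 fold change -2.65 ± 0.76, adjusted p = 0.041). That call was lost without control library 1 or 2 (both 0.16) or hepatoma library 4 (0.078).

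Control library 3 differed from the other controls. Of 4516 tested genes with a mean of at least 10 RPKM, 29 were at least 4-fold above the mean of control libraries 1 and 2 in it and 76 at least 4-fold below, while none differed 4-fold between libraries 1 and 2. Of the 76 genes below, 68 were called lower in the hepatoma, and of the 29 above, 25 were called higher. Among all tested genes 8.73% were called lower and 85.5% higher, so the count of 25 was near the share of all tested genes. Ugt2b1, a glucuronidating enzyme of hepatocytes, had 76.7, 89.2 and 6.23 RPKM in the controls and 0.599, 0.0557, 1.34 and 1.1 in the hepatomas (log2 fold change -4.45 ± 0.98, adjusted p = 0.015). It was lowest of the controls in library 3 but above all hepatomas, as Cyp3a2 was. The call of Ugt2b1 was lost in at least 1 alternative fit (highest adjusted p = 0.095). Pcolce, an enhancer of collagen processing, had 4.29, 3.27 and 147 RPKM in the controls and 223, 223, 131 and 230 in the hepatomas and was not called (log2 fold change 3.72 ± 1.34, adjusted p = 0.1). Without control library 3 it had 5.38 (adjusted p = 1.3e-06). Klk10 had no reads in it, and Cdkn2a had 0.252, 0.246 and 0.0737 RPKM in control libraries 1 to 3.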

How the data were processed

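RNA sequencing of 4 Morris hepatoma and 3 control liver libraries was taken from the deposited table of this comparison. Per the labels' protocols, total RNA with a RIN above 7 went into standard Illumina libraries. The table gives values that were read as RPKM, made by the authors, with 0.001 for no reads. Per the file headers it also gives the authors' log2 ratio of group means and a p-value with Holm correction, neither of which was used beyond its range. The headers name no unit, so RPKM was inferred from how low values step with library and gene. Aligner, counting and genome build are not given in the sources used here, and depth is unknown.

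Genes with at least 1 RPKM in 3 of 7 libraries were tested with limma 3.58.1 (trend and robust) in R 4.3.3 on log2(RPKM + 1), with Benjamini-Hochberg adjustment over 23154 protein-coding genes of RefSeq GRCr8, since the table lists selected genes. Of the 9082 genes 9051 matched RefSeq by GeneID or symbol, and 1 line without a gene was left out. Library numbers follow accession order. Tables used Python 3.11.15, and the test was checked on simulated data. Alternatives were another pseudocount (0.1), no filter and a filter at 5 RPKM, equal medians, quantile normalization, a block on library number, adjustment over tested genes, limma without trend and robust, and leaving out each library. The fits with hepatoma libraries 1 and 2 alone and 3 and 4 alone were added after seeing the data.

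The members and the 54 gene lists were chosen with earlier results of these data known. Genes named in the text were the 12 largest rises and 12 largest falls among called genes with groups apart and a mean of at least 10 RPKM, the 4 lowest adjusted p and up to 3 contrary members of each list, the highest genes without reads in a group, the most abundant genes and those that varied most among libraries. Other list members were named after their values were seen, and so were the counts by pairs of hepatoma libraries. Promoter windows are those of RefSeq GRCr8, for 27457 genes. The values of 2 genes are not reported here.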

Additional observations from a re-analysis of the deposited data

Results flagged for a closer look

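Of 114 genes given with values, 7 had 1 hepatoma library far from the other 3 by Dixon's criterion for groups of 4, which chance alone meets in about 1 in 20 groups. In 5 of them hepatoma library 3 was the lowest. It had 2484 RPKM of Gstp1, the placental glutathione transferase, 255 of the kinase inhibitor locus Cdkn2a, 7.7 of the Wnt receptor gene Fzd2, 6.72 of the homeobox gene Hoxd13 and 131 of the collagen processing gene Pcolce. In the same library Sdha, a complex II subunit gene, was highest with 48.1 RPKM. Hepatoma library 2 was highest for the mitotic kinase gene Plk1 with 59.3 RPKM. The same 5 low genes were each above all controls in library 3, except Pcolce, where control library 3 was higher. What sets library 3 apart for these genes was not tested.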

How the results depend on the processing

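Scaling moved the counts most. The 7042 higher genes became 2029 with equal medians and 2514 with quantile normalization, and the 719 lower genes became 2389 and 1878. Leaving out 1 library gave 6812 to 6940 higher and 343 to 841 lower genes. No filter gave 7637 and 827, a filter at 5 RPKM 5582 and 526, pseudocount 0.1 7017 and 580. Direction turned in 4 named genes under scaling, Atp5b (-0.55 with equal medians), Por (-1.16 and -0.56 with quantile normalization), Cyp20a1 (-0.48 and -0.45) and Cyp2s1 (-0.75 and -0.47). No gene turned in direction under the other alternatives. Of 114 named genes, 5 lost their call with pseudocount 0.1, 20 with a replicate block and up to 17 when 1 library was left out.

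Library numbers only follow accession order. The correlation of same-numbered deviations was -0.152, -0.22 and -0.198 for numbers 1 to 3, no library correlated best with its own number, and the numbers do not pair the samples. With a replicate block 6725 genes were higher and 242 lower. The cause of these shifts was not tested. Read depth is not known, so no counting error can be given for genes near 0.001, and 4 against 3 libraries limit the precision. The listed genes were preselected by a deposited p-value, so unlisted members of a list have no value.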

Other observations

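The distance of each hepatoma from the controls over the 130 hepatocyte genes depended on which control was used. For hepatoma library 3 the log2 ratio to the mean of control libraries 1 and 2 had a median of -2.37 with an SD of 1.66 over genes, and the ratio to control library 3 a median of -1.65 with an SD of 1.12. For hepatoma library 4 the medians were -2.7 and -2.03 and the SDs 1.66 and 1.22. For hepatoma library 1 they were -6.4 and -5.25 (SDs 2.06 and 2.14), and for library 2 -10.6 and -8.98 (SDs 3.88 and 3.87). For hepatoma libraries 3 and 4 the SD over genes was thus smaller against control library 3 than against the mean of control libraries 1 and 2. What lies behind this was not tested.

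The order of the hepatoma libraries went with the direction of change. Both libraries 3 and 4 lay above both libraries 1 and 2 in 86.8% of the genes called lower (86% of the 664 of these outside the hepatocyte lists), 3.58% of those called higher and 14% of all tested genes. Among genes called higher, 51.6% had both libraries 3 and 4 below both libraries 1 and 2, near the 44.8% of all tested genes. Among genes called lower 0.695% had this order.

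Promoter CpG content differed between lists. The observed over expected CpG ratio had a median of 0.802 in 5851 genes called higher, 0.564 in 600 called lower, 0.157 in P450 genes and 0.41 in genes without reads in the controls, against 0.549 in all protein-coding genes.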
